A study of Drosophila melanogaster with 12 samples.

Results

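The diet by time interaction asks which genes responded differently to erythritol after 96 h than after 72 h. For each gene it is the log2 fold change of erythritol-fed against control flies at 96 h minus the same fold change at 72 h, and it equals the change over time on erythritol minus the change over time on control medium. It was tested for 13179 of the 17707 genes in the count table, those with enough counts, over all 12 libraries. Whole bodies of Drosophila melanogaster were sequenced in 4 groups of 3 libraries: flies kept on erythritol medium for 96 h (T96h) or 72 h (T72h), and flies kept on the same medium without erythritol for 96 h (CK96h) or 72 h (CK72h). Flies were placed on the media when newly emerged, so time on the medium and adult age run together in all 4 groups, and each library was made from pooled flies. The labels and methods give no strain and no sex. Erythritol is a sugar alcohol that is toxic to flies when eaten.

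Whole-body RNA mixes the transcripts of many tissues. Females begin to make yolk and eggshell in the first days after emergence, the testis of males transcribes a large set of genes used in few other cells, and the fat body makes antimicrobial peptides when microbes are sensed. In whole-body RNA, fewer cells of a type and less RNA per cell cannot be told apart, and the share of males and females in a pool cannot be told apart from a change within one sex. Levels are given as counts per 1000000 counts (CPM) after scaling of the library sizes. CPM is not corrected for gene length, so it is compared between groups and not between genes.

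The libraries held 19855575 to 23327826 counts each. Replicates lay close together, with a common coefficient of variation of 4.06%, and every SE and p-value below rests on that small spread. Replicate 3 of T72h lay furthest from its group. Its chi-square per degree of freedom was 59.8 against replicate 1 and 23.6 against replicate 2, and at most 12.8 for any other pair of replicates. Transcripts of the mitochondrial genome took 7.29% to 11.9% of the counts in 11 libraries and 16.5% in replicate 3 of T72h. Without the genes of the mitochondrial genome 2491 genes were called higher and 301 lower, close to the counts given next. Markers of the main tissues of a whole body were present. TpnC4 of flight muscle, ninaE of photoreceptors, alphaTry of the gut, apolpp of the fat body, osk of the ovary, betaTub85D of the testis, Acp36DE of the accessory gland and Hml of hemocytes were among the genes tested.

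The erythritol effect changed between the times for many genes, and more of those past the fold threshold were higher at 96 h than lower. A gene was called where the adjusted p was under 0.05 and the log2 difference was 1.5 or more in size. By that rule 2498 genes (19.0% of those tested) had a higher erythritol effect at 96 h than at 72 h, and 306 genes (2.32%) had a lower one. On the adjusted p alone, 4101 genes (31.1%) were higher and 6303 (47.8%) lower. The difference over all genes had 2 modes, with 2186 genes between -0.75 and -0.5 and, in a second peak, 723 genes between 2.25 and 2.5. The quartiles of the 2498 higher genes, 1.94 and 2.37 around a median of 2.19, span a narrow range. The 306 lower genes spread more widely, with quartiles of -3.05 and -1.75. The median over all genes tested was -0.22, and it was 0.093 when libraries were scaled by their totals only, so a small difference depends on the scaling. With library totals the genes passing the adjusted p alone were 5207 higher and 3635 lower, whereas those past the fold threshold were 2921 higher and 207 lower.

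**Figure D1:**
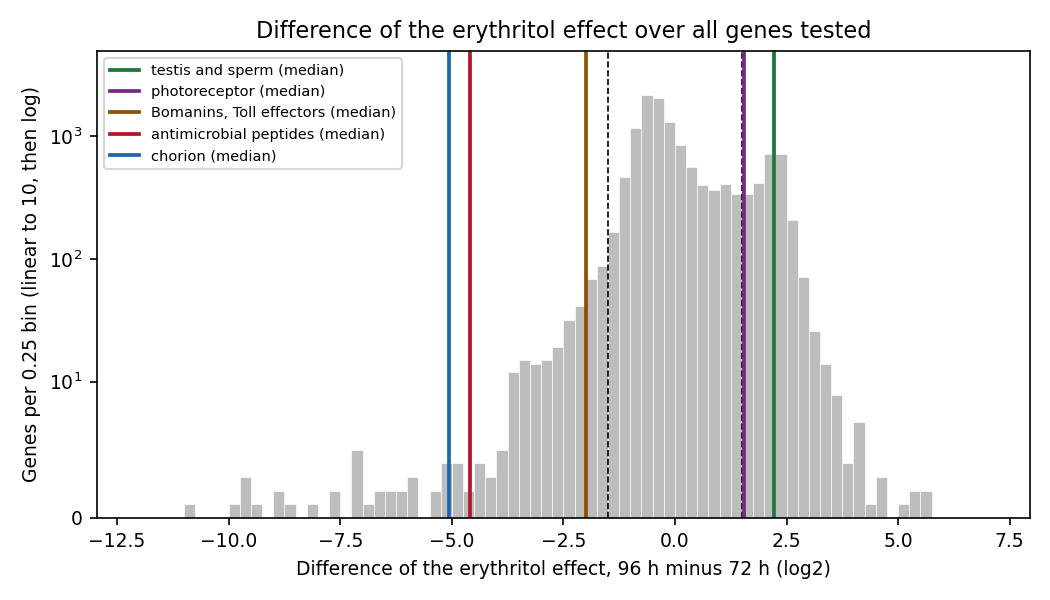
Number of genes (vertical axis, linear to 10 and logarithmic above) by the difference of the erythritol effect, 96 h minus 72 h, on the log2 scale, in bins of 0.25. Dashed lines mark the threshold of 1.5 in each direction and coloured lines the medians of 5 gene lists. A second peak lies around the testis and sperm median of 2.22, and the chorion median of -5.07 lies far out on the lower side.

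To see which diet moved, each called gene was also read for T96h against T72h and for CK96h against CK72h with the same adjusted p and a smaller log2 threshold of 0.75. Over all genes, T96h exceeded T72h for 1783 (13.5%) and was below it for 456 (3.46%), while CK96h exceeded CK72h for 1185 (8.99%) and was below it for 3248 (24.6%). Scaled by library totals these counts were 2166 and 331 for T96h against T72h, and 602 and 3738 for CK96h against CK72h. Both diets moved, in opposite directions, for most of the genes with a higher effect at 96 h. Of those 2498, 1571 (62.9%) were higher in T96h than in T72h and lower in CK96h than in CK72h, 808 (32.3%) were lower in CK96h with T96h under the threshold, and 93 (3.72%) were higher in T96h with CK96h under it. Of the 306 with a lower effect, 173 (56.5%) were higher in CK96h than in CK72h only, 74 (24.2%) were higher in CK96h and lower in T96h, and 50 (16.3%) were lower in T96h only. A further 13 genes moved the same way on both diets but by unequal amounts, and 22 passed in neither diet. The change on control medium was the larger in size for 2248 of the 2498 higher genes and for 206 of the 306 lower ones, beside 10022 of all 13179 genes tested, so the share among the lower genes was below that of all genes. The split depends on the threshold within a diet, because the median change on erythritol among the higher genes was 0.90: at a threshold of 1, 597 genes moved in opposite directions and 1626 on control medium only downwards.

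**Figure D2:**
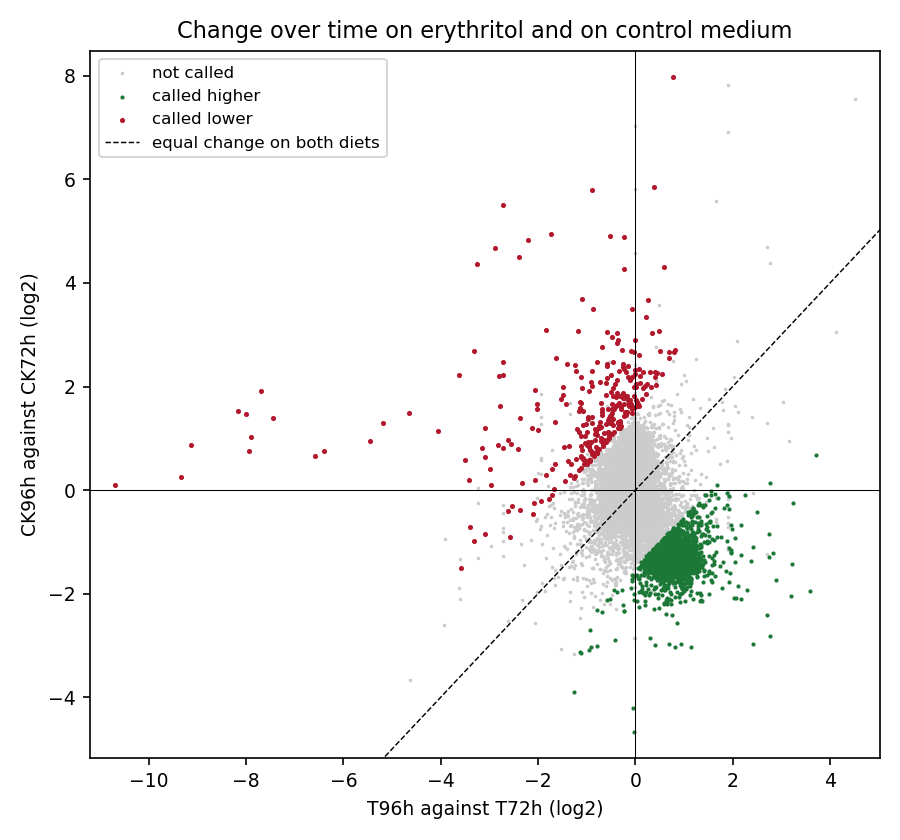
Log2 change over time on erythritol (T96h against T72h, horizontal axis) and on control medium (CK96h against CK72h, vertical axis) for each of the 13179 genes tested, coloured by the call for the difference. The genes called higher form a compact group with medians of 0.90 on erythritol and -1.31 on control medium, and the called gene farthest to the left is Cp19, at -10.7 on erythritol.

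Genes of the testis and of sperm lay in the second peak. They include genes for the sperm tail, sperm mitochondria and sperm chromatin. Of 38 tested members of the testis and sperm list, 37 were called higher and none lower, with a median difference of 2.22. The median changes were 0.95 for T96h against T72h and -1.31 for CK96h against CK72h, and 30 of the 37 passed in both diets in opposite directions. Summed over the list, the transcripts came to 7130.3 to 7193 CPM in T96h, 3383 to 3531 in T72h, 2745 to 2791 in CK96h and 6903 to 6963 in CK72h. The T96h and CK72h sums lay close together at the high end, and the T72h and CK96h sums at the low end.

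loopin-1, which encodes an aminopeptidase-like protein of sperm mitochondria, had 868, 859 and 848 CPM in the T96h libraries, 390.0, 384 and 384 in T72h, 309, 316 and 301 in CK96h, and 775, 798 and 794 in CK72h. The groups did not overlap, and the order of the groups was that of the list. The difference for loopin-1 was 2.51 (SE 0.052, adjusted p = 1.58e-22), with a change of 1.15 on erythritol and -1.36 on control medium. The related S-Lap genes for sperm aminopeptidases shared this pattern, with differences of 2.51 for S-Lap3, 2.47 for S-Lap8, 2.51 for S-Lap4 and 2.46 for S-Lap1. betaTub85D, the testis beta-tubulin, had 414, 419 and 399 CPM in the T96h libraries, 203, 197 and 195 in T72h, 156, 153 and 145 in CK96h, and 431, 428 and 427 in CK72h, a difference of 2.55 (SE 0.053, adjusted p = 1.77e-22). Mst98Ca, a sperm tail gene, was at 2.39, dj, a sperm tail and mitochondrial gene, at 2.01, and the protamine gene ProtA at 2.23. The regulators of the spermatocyte programme aly and can, at levels under 6 CPM in each group mean, had differences of 2.17 and 1.9. mia, another gene of that programme, was the member not called, at 0.47 (adjusted p = 0.00965).

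The Y chromosome is present in males only, and its protein-coding genes are expressed in the testis. Of the 12 tested genes of the Y chromosome list, 10 were called higher and none lower, with a median of 2.14. kl-5, a dynein heavy chain of the sperm tail, had 14.6, 11 and 11.1 CPM in the T96h libraries, 7.96, 8.12 and 8.32 in T72h, 3.93, 3.9 and 3.76 in CK96h, and 17.9, 17 and 18 in CK72h. Every CK96h library was below every library of the other groups, and its difference was 2.78 (SE 0.15, adjusted p = 2.09e-14). The 2 other dynein genes kl-3 and kl-2 had differences of 2.32 and 2.37, and CCY one of 2.26. PRY (1.38, adjusted p = 0.0124) and FDY (0.94, adjusted p = 0.0141) passed the adjusted p but not the fold threshold, and PRY was called in 4 of the 12 fits with 1 library left out, at most at 1.74 without replicate 1 of T72h. Of the Y-linked genes in the annotation, 16 of 19 tested (84.2%) were called higher, against 16.6% of the 2028 X-linked genes, 3.23% of the 93 genes on chromosome 4 and 18.4% to 22.2% on the arms of chromosomes 2 and 3.

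The roX RNAs coat the male X chromosome in dosage compensation and are made in somatic tissues of males, outside the germline. They were added after their values had been seen. lncRNA:roX1 had 76.5, 77.6 and 81.1 CPM in the T96h libraries, 32.3, 33 and 40.2 in T72h, 70.9, 73.7 and 75.5 in CK96h, and 179, 165 and 168 in CK72h. Its difference was 2.37 (SE 0.079, adjusted p = 8.56e-19), and that of lncRNA:roX2, at lower levels, 1.8 (SE 0.27, adjusted p = 1.69e-06). Unlike loopin-1, roX1 was lower in every T96h library than in any CK72h library.

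Several housekeeping complexes have spare gene copies that are used in the testis, and copies and general subunits are given side by side. All 14 testis paralogs of proteasome subunits were called higher, with a median of 2.22, while none of the 32 general proteasome subunits was called and their median was -0.25 (0.066 with library totals). The paralogs Prosbeta5R1 and Prosalpha6T were at 2.47 and 2.38. Among 83 nuclear genes of the respiratory chain, 19 were called higher, a share near the 19.0% over all genes. Of these, 18 have a symbol with an added L, which marks a duplicate of a general subunit, a grouping made after the values were seen. The other was ND-MWFE (1.69). COX4L had 54.8 ± 2.06 CPM in T96h, 27.2 ± 2.41 in T72h, 25.1 ± 1.14 in CK96h and 60.2 ± 1.33 in CK72h (SD, n = 3), a difference of 2.28 (SE 0.079, adjusted p = 1.93e-18), and ND-51L2 and ND-51L1 were at 2.6 and 2.4. COX7AL2 went against them, at -1.55 (-1.19 without replicate 3 of T72h, where it was not called). Of 76 cytoplasmic ribosomal protein genes, the 3 called higher were the duplicates RpS10a (2.43), RpS19b (1.79) and RpS28a (1.67), beside a list median of -0.60. That is a smaller share than the 19.0% called higher over all genes. The remaining 73, among them the copies RpS5b, RpL34a and RpS14b, were lower on the adjusted p alone. RpS28a was not called without replicate 2 of T72h (1.43) or replicate 3 of CK96h (1.28).

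Among genes whose log2 CPM averaged 2 or more and that had over 3 counts in every group, the 10 largest rises of the erythritol effect were those of Alp8 and of 9 genes with only a CG number. Alp8, an alkaline phosphatase gene, had 50.4, 50.2 and 51.5 CPM in the T96h libraries, 11, 10.6 and 9.44 in T72h, 0.0497, 0.101 and 0.0432 in CK96h, and 0.167, 0.261 and 0.356 in CK72h, and its difference of 4.22 (SE 0.59, adjusted p = 5.12e-07) rests on 4 counts in CK96h and 18 in CK72h. CG15263 had 45, 40.4 and 41.9 CPM in the T96h libraries, 45, 42.1 and 45.5 in T72h, 0.646, 0.962 and 0.864 in CK96h, and 15.3, 12.9 and 17.5 in CK72h, a difference of 4.14 with changes of -0.058 on erythritol and -4.2 on control medium. CG12009, CG6118 and CG15239 had differences of 3.46, 3.3 and 3.29 and lower means in both erythritol groups than in either control group. CG31029 had 189, 186 and 185 CPM in the T96h libraries, 75.2, 72.8 and 69.4 in T72h, 55.6, 53.7 and 54.7 in CK96h, and 151, 151 and 157 in CK72h, a difference of 2.85, in the order of groups seen for the testis list. CG15824 (2.84), CG15549 (2.87), CG32301 (2.84) and CG34447 (2.86) completed the 10. Of the 2498 higher genes, 1436 bear only a CG number, as do 5045 of the 13179 genes tested, and 44.5% of the 780 noncoding RNA genes tested were called higher, against 17.4% of the 11981 protein-coding ones. The share called higher also differed by level, at 32.8% of genes with a mean log2 CPM below 0 and 5.09% of those above 6. Gene class and level were not separated. The list of sugar and polyol transport genes had 14 tested members, 4 called higher and none lower. That stands beside 19.0% called higher and 2.32% called lower over all genes. Its median was -0.098 (0.22 with library totals), and on the adjusted p alone 5 members were higher and 7 lower. The called members were the sugar transporter genes sut4, sut3 and Tret1-2, with differences of 2.55, 2.21 and 1.75, and the aquaporin gene Eglp1 at 2.42. Eglp1 had 25.7 ± 1.64 CPM in T96h, 12.7 ± 0.641 in T72h, 9.57 ± 0.213 in CK96h and 25.4 ± 1.21 in CK72h (SD, n = 3).

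Male accessory gland genes moved mainly on control medium. They encode seminal proteins that are passed to females at mating. Of 61 tested members, 22 were called higher and 1 lower, beside 19.0% and 2.32% over all genes, with a median of 1.24. Lower in CK96h than in CK72h were 60, beside 24.6% of all genes. Higher in T96h than in T72h were 9, a share near the 13.5% of all genes. The summed level was 643 to 687 CPM in T96h, 491 to 556 in T72h, 2716 to 2822 in CK96h and 6184 to 6375 in CK72h. Both erythritol groups lay far below the control groups. Acp36DE, a sperm storage protein, had 60.1, 58.1 and 59.8 CPM in the T96h libraries, 52.4, 54.2 and 54.3 in T72h, 362, 358 and 384 in CK96h, and 1029, 1009 and 1017 in CK72h, with changes of 0.15 on erythritol and -1.47 on control medium. Other members rose on erythritol as well as falling on control medium, among them lectin-46Cb, Acp32CD and Acp26Ab, with differences of 2.31, 2.06 and 1.96. The member called lower, Acp1 (-2.35), and Acp65Aa (2.11), called higher, encode cuticle proteins and entered the list by their symbols.

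**Figure D3:**
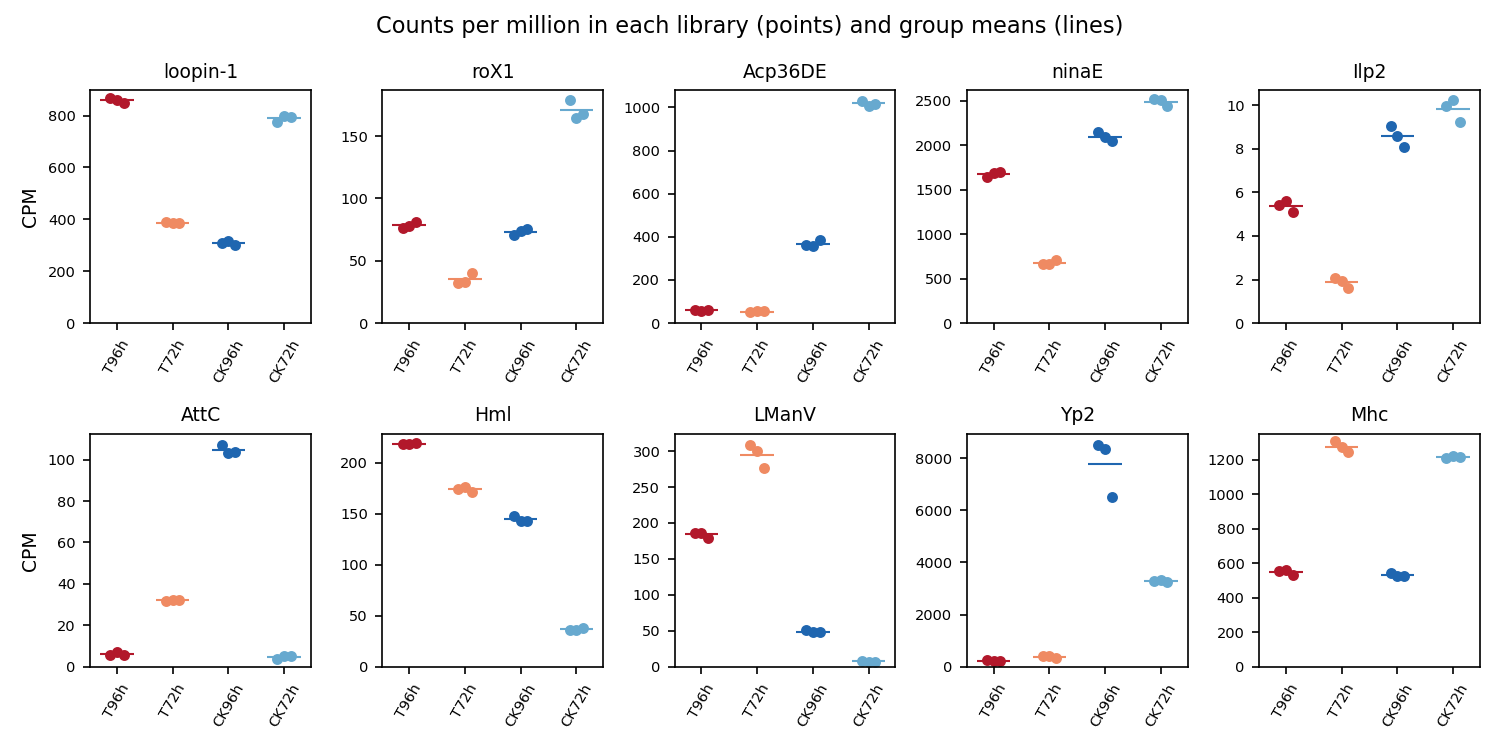
CPM in each of the 3 libraries of a group (points) with the group mean (line) for 10 genes, each on its own linear axis from 0. loopin-1 is high in T96h and CK72h, ninaE and Ilp2 are lowest in T72h, AttC is highest in CK96h, Hml is lowest in CK72h, and Mhc is lower at 96 h on both diets.

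Photoreceptor genes moved on erythritol. Phototransduction uses rhodopsins, arrestins and the trp channels, and ninaE encodes the main rhodopsin of the eye. Of 19 tested genes, 11 were called higher and none lower, with a median of 1.55, and all 11 were higher in T96h than in T72h with the control change under the threshold. ninaE had 1645, 1684 and 1695 CPM in the T96h libraries, 660.0, 661 and 713 in T72h, 2143, 2090.1 and 2050.5 in CK96h, and 2521, 2504 and 2439 in CK72h. T72h stood below the other 3 groups, and the difference was 1.55 (SE 0.060, adjusted p = 1.85e-17). Rh4, a rhodopsin of ultraviolet-sensitive cells, had 117, 118 and 116 CPM in the T96h libraries, 42.7, 39.5 and 38 in T72h, 106, 95.7 and 100.2 in CK96h, and 138, 139 and 135 in CK72h, a difference of 1.99. trp, Arr2, Arr1 and ninaC had differences of 1.9, 1.72, 1.71 and 1.65. CarT, a carcinine transporter of photoreceptors, and Gbeta76C, their G protein beta subunit, also rose on erythritol with the control change under the threshold, with differences of 2.16 and 1.83.

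Several neuropeptide genes were also lowest in T72h. Of 32 tested, 7 were called higher and 1 lower, a share near the 19.0% called higher over all genes, with a median of 0.76. Dsk, the drosulfakinin gene, had 5.85, 5.34 and 4.43 CPM in the T96h libraries, 1.3, 1.3 and 1.52 in T72h, 7.06, 7.09 and 7.13 in CK96h, and 8.41, 9.38 and 9.6 in CK72h, a difference of 2.28 (SE 0.20, adjusted p = 2.39e-10). Eh, the eclosion hormone gene, had 0.328, 0.605 and 0.626 CPM in the T96h libraries, 0, 0.144 and 0 in T72h, 0.895, 0.658 and 0.692 in CK96h, and 0.711, 0.955 and 1.02 in CK72h. It was called higher, but with 3 counts over T72h no fitted size is given. Dh44, a diuretic hormone gene, was at 1.94, CCAP at 2.06 and Crz, the corazonin gene, at 2.03. CCAP was not lowest in T72h: its mean was 0.66 CPM in CK96h and 1.38 in T72h, and it fell on control medium only. By class, 4 of the 7 called higher rose on erythritol only, 2 moved in opposite directions and 1 fell on control medium only. Ms (1.53) and SIFa (1.57) lay at the threshold and were not called without some single libraries, at their lowest 1.43 for Ms without replicate 2 of T72h and 1.41 for SIFa without replicate 3 of T72h. The other diuretic hormone genes Capa (1.06) and Dh31 (0.44) passed the adjusted p but not the fold threshold. Nplp3 was called lower, with 9.84, 11 and 10.6 CPM in the T96h libraries, 35.3, 31.2 and 32.9 in T72h, 140.2, 136 and 134 in CK96h, and 97.9, 98.7 and 93.5 in CK72h and a difference of -2.15. The insulin-like peptide gene Ilp2, expressed in brain neurosecretory cells, had 5.43, 5.6 and 5.11 CPM in the T96h libraries, 2.05, 1.92 and 1.62 in T72h, 9.05, 8.61 and 8.08 in CK96h, and 9.95, 10.2 and 9.25 in CK72h. It was lowest in T72h, changed by 1.52 on erythritol and -0.20 on control medium, and its difference was 1.72 (SE 0.18, adjusted p = 4.03e-09). Ilp3 (1.04, adjusted p = 0.00722) passed the adjusted p only (1.5 and called without replicate 3 of T72h), and neither Ilp5 (0.73, adjusted p = 0.234) nor Akh, the adipokinetic hormone gene (-0.28, adjusted p = 0.0741), passed it.

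Among genes whose log2 CPM averaged 2 or more and that had over 3 counts in every group, 4 antimicrobial peptide genes were in the 10 largest falls. They are switched on in the fat body by the Toll and Imd pathways, which respond to microbes. Of 14 tested, 11 were called lower and none higher, with a median of -4.59 (-3.92 without replicate 3 of T72h). The median changes were -1.61 for T96h against T72h and 2.62 for CK96h against CK72h. AttC, an attacin gene, had 5.81, 6.86 and 5.64 CPM in the T96h libraries, 31.7, 32.2 and 32.3 in T72h, 107, 103 and 104 in CK96h, and 3.68, 5.21 and 4.93 in CK72h. It was highest in CK96h and intermediate in T72h, and its difference was -6.91 (SE 0.11, adjusted p = 1.25e-24). DptB and DptA, the diptericin genes, had differences of -7.03 and -6.69, Dro, the drosocin gene, -6.0 and AttA and AttB -3.85 and -3.48. Mtk, the metchnikowin gene, had 0.328, 0.656 and 0.289 CPM in the T96h libraries, 4.41, 4.04 and 3.75 in T72h, 41, 47.1 and 46.9 in CK96h, and 1.84, 2.3 and 2.4 in CK72h, the largest fall of the list at -7.63 (adjusted p = 6.09e-19). Of the 11 called members, 10 fell in T96h against T72h and rose in CK96h against CK72h. The exception was AttD, at 0.68 on erythritol and 2.54 on control medium, which was not called without replicate 3 of CK72h (adjusted p = 0.0502). Def, the defensin gene, lay at the threshold (-1.49, and called without 6 of the 12 libraries in turn), and CecA1, a cecropin gene, was at -0.70. PGRP-SB1, a peptidoglycan-cleaving amidase gene, moved on control medium, with 5.85, 6.86 and 5.68 CPM in the T96h libraries, 9.27, 8.36 and 9.94 in T72h, 60.6, 56.5 and 59 in CK96h, and 6.73, 8.6 and 6.0 in CK72h and a difference of -3.63.

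Bomanin genes and other effectors of the Toll pathway were mostly moved on control medium. Of 17 tested, 13 were called lower and none higher, with a median of -2.0, and 10 of the 13 were higher in CK96h only. BomS2 had 28.8, 27.5 and 30.9 CPM in the T96h libraries, 47, 48.6 and 55.2 in T72h, 73.5, 77.2 and 70 in CK96h, and 14.6, 14.7 and 10.4 in CK72h, a difference of -3.26 (SE 0.11, adjusted p = 2.59e-18). BomS2 is among the 3 called members that also fell on erythritol, with changes of -0.79 on erythritol and 2.47 on control medium. BomS3 was at -2.19 and BomBc1 at -2.0, and BomT3 was not called (-1.28). The signalling genes of the Toll and Imd pathways had 1 of 24 called lower, beside 2.32% over all genes, and a median of -0.56.

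Several hemocyte genes rose on control medium. They were read in a list of 16 hemocyte and basement membrane genes, which also holds Col4a1, vkg and Fer1HCH. Summed over that whole list, transcripts came to 3353 to 3387 CPM in T96h, 3285 to 3529 in T72h, 2141 to 2309 in CK96h and 1414 to 1430.2 in CK72h. Both erythritol sums lay above both control sums, but the sum does not describe the hemocyte markers alone. Of 16 tested, 6 were called lower, all with a rise in CK96h only, and the median difference was -1.1. Hml, a clotting protein gene of plasmatocytes, had 219, 218 and 219 CPM in the T96h libraries, 174, 177 and 172 in T72h, 148, 143 and 143 in CK96h, and 36, 35.6 and 38.1 in CK72h. CK72h was the lowest group, and the difference was -1.65 (SE 0.052, adjusted p = 2.69e-19). PPO2, a prophenoloxidase gene of crystal cells, had 59, 56.5 and 58.3 CPM in the T96h libraries, 60.1, 55.6 and 49.1 in T72h, 114, 103 and 108 in CK96h, and 17.9, 17.2 and 18.4 in CK72h and a difference of -2.53. Unlike the sum, PPO2 was highest in CK96h. The phagocytosis receptor genes NimC1 and eater were at -1.88 and -2.11. Under library totals Hml was at -1.34 and was not called.

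Alpha-mannosidase genes, whose enzymes trim mannose from sugar chains, rose on control medium. Of 6 tested, 5 were called lower and none higher, with a median of -2.76. LManV had 187, 186 and 179.6 CPM in the T96h libraries, 309, 300.4 and 276 in T72h, 50.3, 47.7 and 48.1 in CK96h, and 7.78, 6.64 and 7.07 in CK72h, a difference of -3.44 (SE 0.078, adjusted p = 6.03e-22). LManIII and LManVI were at -3.23 and -2.83, and LManI at -1.67. LManII, at -1.35, passed the adjusted p but not the fold threshold. CG15534 had the same order of groups, with 42.3, 43.1 and 42.5 CPM in the T96h libraries, 56.3, 56.1 and 52.7 in T72h, 31.7, 33.7 and 30.5 in CK96h, and 3.72, 4.95 and 2.93 in CK72h.

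**Figure D4:**
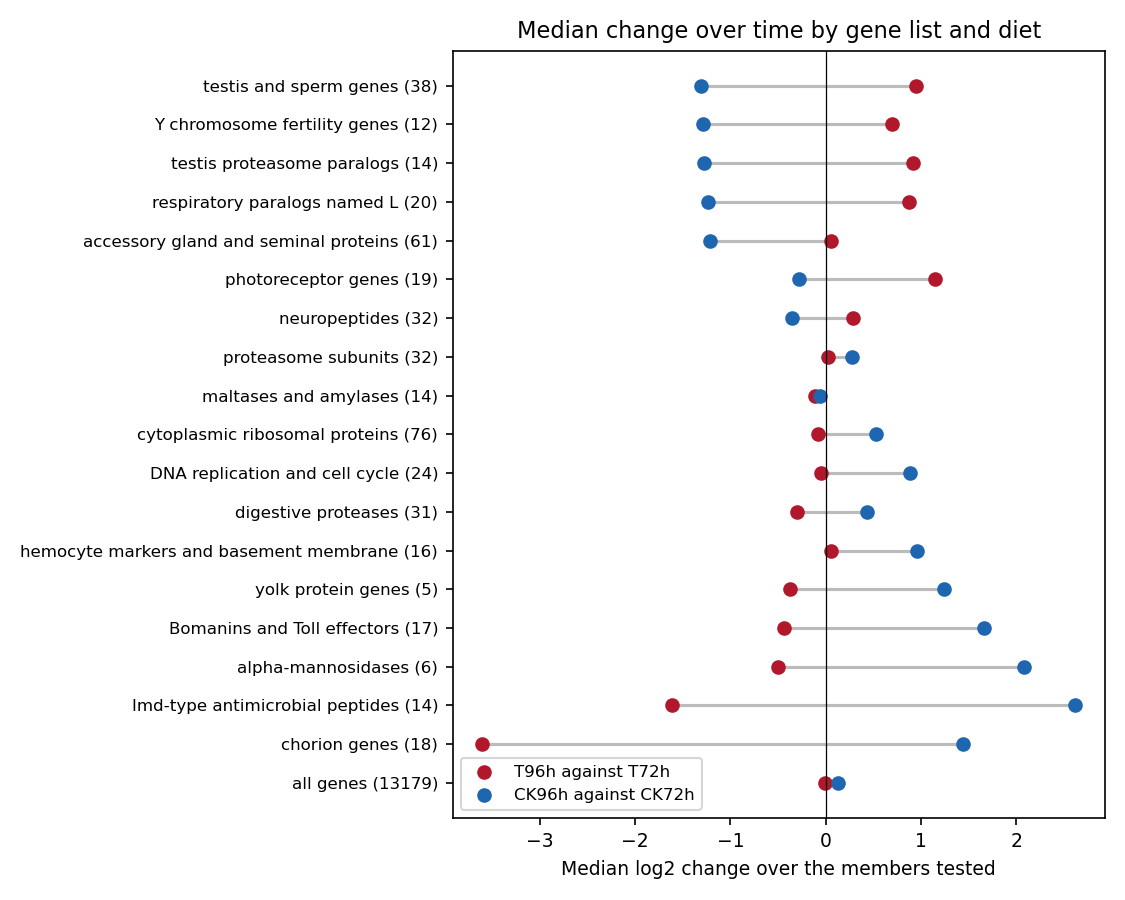
Median log2 change over time for each gene list (members tested in brackets), on erythritol (T96h against T72h) and on control medium (CK96h against CK72h), joined by a line. The list named L holds ND-MNLL too, a general subunit whose symbol ends that way, but it was not tested and is not in the median. Testis lists lie near 0.9 on erythritol and near -1.3 on control medium, antimicrobial peptides at -1.61 and 2.62, and chorion genes at -3.60 and 1.44.

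Eggshell genes gave the 5 largest falls among genes with more than 3 counts in every group. Follicle cells secrete the vitelline membrane first and the chorion after it, and the major chorion genes lie in 2 amplified clusters, on the X chromosome and on chromosome arm 3L. Of 18 tested chorion and eggshell genes, 14 were called lower and none higher, with a median of -5.07. Summed over the list, their transcripts came to 7.97 to 9.7 CPM in T96h, 583 to 627 in T72h, 6531 to 7258 in CK96h and 2948 to 3010.2 in CK72h. Cp19 (FBgn0000358, chromosome 3L, 8729865 to 8730604, plus strand in the dm6 assembly) had 0.0937, 0.101 and 0.241 CPM in the T96h libraries, 258, 247 and 247 in T72h, 596, 582 and 543 in CK96h, and 537, 546 and 532 in CK72h. T72h lay below both control groups, T96h was close to 0, and the difference was -10.79 (adjusted p = 1.53e-27). Cp16 and Cp18 on that arm had differences of -9.59 and -9.61. Cp18 had 0.796, 0.756 and 0.915 CPM in the T96h libraries, 179, 171 and 163 in T72h, 372, 353 and 320.3 in CK96h, and 89.9, 94.6 and 91.3 in CK72h, and T72h lay above CK72h. Cp36 (FBgn0000359, chromosome X, 8479319 to 8480523, plus strand) had 0.0937, 0 and 0.193 CPM in the T96h libraries, 32.2, 29.8 and 26.4 in T72h, 1825, 1756 and 1643 in CK96h, and 598, 614 and 595 in CK72h, and Cp38 beside it 0.0937, 0.151 and 0.144 CPM in the T96h libraries, 36.5, 35.4 and 32.4 in T72h, 2183, 2067 and 1859 in CK96h, and 718, 755 and 729.6 in CK72h. Both genes were far below the control groups in T72h and lower still in T96h, with differences of -9.7 and -9.48. Cp15 was at -3.46, Cp7Fa at -3.69 and Cp7Fc at -2.69. In T96h the counts over 3 libraries were 9 for Cp19, 7 for Cp16, 6 for Cp36 and 8 for Cp38, so these values rest on few counts. dec, the gene of a further follicle cell protein of the eggshell, had 0.57 ± 0.206 CPM in T96h, 1.19 ± 0.326 in T72h, 558 ± 10.3 in CK96h and 365 ± 10.6 in CK72h (SD, n = 3), a difference of -1.68.

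Split by the time of use in oogenesis, a division made after the values were seen, the eggshell genes stood at different points. The 7 structural vitelline membrane genes summed to 0.433 to 0.958 CPM in T96h, 0.952 to 1.22 in T72h, 2025 to 2270.4 in CK96h and 1399 to 1467 in CK72h, the 5 early chorion genes to 2.77 to 3.37 CPM in T96h, 64.9 to 75.1 in T72h, 4084 to 4587 in CK96h and 1511 to 1562 in CK72h and the 4 late chorion genes to 3.53 to 4.14 CPM in T96h, 499 to 533 in T72h, 1842 to 2073 in CK96h and 1225 to 1246 in CK72h. In T72h the vitelline sum was near 0 and the late chorion sum was the nearest to the control groups, carried by Cp16, Cp18 and Cp19. Cp15, the other late gene, was at -4.9 for T72h against CK72h, further below control than the early genes Cp36 (-4.35) and Cp38 (-4.4). In T96h all 3 sums were under 5 CPM. Vm26Aa, the vitelline gene called lower, had 2 counts over T96h and 18 over T72h, a ratio of T72h to T96h of 9.22 (95% counting interval 2.21 to 81.9), against 52107 in CK96h and 43570 in CK72h. CG4009 had 0 counts in T96h, 62 in T72h, 8138 in CK96h and 3428 in CK72h, which makes T96h at least 21.2-fold lower than T72h, with 3 counts over the group taken as the floor. CG13084 had 2 counts in T96h and 1284 in T72h (T72h to T96h ratio 657, interval 182 to 5435), CG32642 had 1 and 315 (323, 57.5 to 12782), Femcoat had 3 and 807 (275, 93.9 to 1339) and CG31926 had 3 and 314 (107, 36.3 to 523). These intervals cover counting error only. Mur11Da, a mucin-related gene, had 0.187, 0 and 0 CPM in the T96h libraries, 5.56, 5.91 and 6.24 in T72h, 6.41, 7.24 and 9.21 in CK96h, and 4.94, 4.47 and 4.22 in CK72h. Its T96h level rests on few counts, all in 1 library. CG14756 was called higher, with 7 counts in T96h, 3 in T72h, 302 in CK96h and 1121 in CK72h, and it was not called without replicate 3 of T96h (adjusted p = 0.305).

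**Figure D5:**
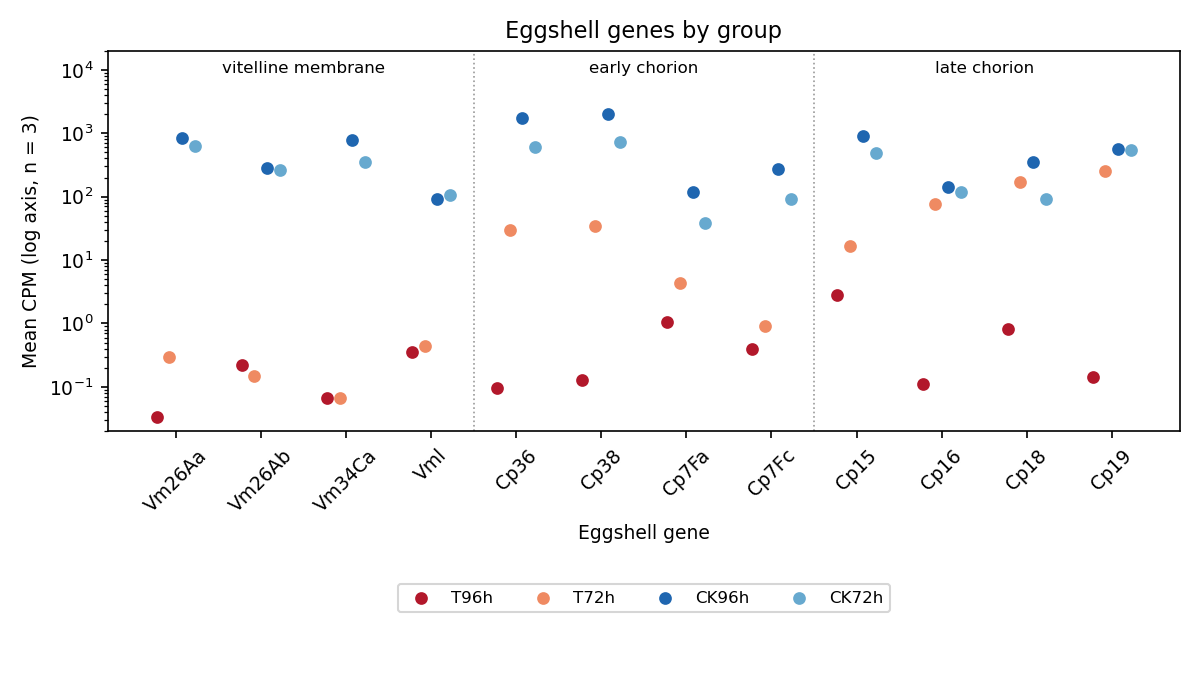
Mean CPM on a log axis in T96h, T72h, CK96h and CK72h (n = 3 libraries each) for 12 eggshell genes from vitelline membrane to late chorion. In T72h Cp16, Cp18 and Cp19 lie nearest to the control groups, at 76.4, 171 and 251 CPM, the early chorion genes lie further below them and the 4 vitelline genes are under 1 CPM, while in T96h all 12 are under 3 CPM.

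Yolk genes rose on control medium, 4 of the 5 past the threshold of 0.75. They are made in the fat body and the ovary of females and are taken up by oocytes through the receptor encoded by yl. Of 5 tested, 3 were called lower, with a median of -1.61. Yp2 had 235, 224 and 227 CPM in the T96h libraries, 415, 395 and 336 in T72h, 8517, 8357 and 6502 in CK96h, and 3275, 3332 and 3266 in CK72h, a difference of -1.98 (SE 0.11, adjusted p = 1.85e-14). Yp3 was at -2.38 and fit, a female-enriched fat body gene, at -1.61. Yp1 (-1.46) and yl (-1.1) passed the adjusted p but not the fold threshold, and Yp1 was called at -1.56 without replicate 3 of CK96h. fit was at -1.29 and not called under library totals. Fcp3C, a follicle cell protein gene, rose on control medium only, with a difference of -5.12 and 0.656, 0.303 and 0.578 CPM in the T96h libraries, 0.30, 0.673 and 0.863 in T72h, 55.4, 51.4 and 50.4 in CK96h, and 1.8, 1.82 and 1.69 in CK72h. By edgeR, none of 24 DNA replication and cell cycle genes was called, with a median of -0.95 and 23 lower on the adjusted p alone, and 20 of them were higher in CK96h than in CK72h. Of 22 maternal genes, only exu was called higher (1.59), beside 19.0% over all genes, and none lower, with a median of -0.75.

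Muscle genes were mostly lower at 96 h on erythritol. Of 22 sarcomere genes, 18 were lower in T96h than in T72h, beside 3.46% of all genes. Lower in CK96h than in CK72h were 7, beside 24.6% of all genes. For the difference 3 were called, all lower, beside 2.32% called lower over all genes. Mhc, the muscle myosin heavy chain, had 554, 560.4 and 533 CPM in the T96h libraries, 1309, 1270.2 and 1246 in T72h, 540.4, 528 and 526 in CK96h, and 1206, 1221 and 1212 in CK72h, and its changes of -1.22 and -1.19 left a difference of -0.025 (adjusted p = 0.685, 95% interval -0.14 to 0.087). The called genes were TpnC4, a flight muscle troponin C, with 156, 156 and 166 CPM in the T96h libraries, 258, 289.8 and 349.7 in T72h, 84.6, 99.4 and 98.2 in CK96h, and 21.5, 23.2 and 21.9 in CK72h and a difference of -2.99, Mf, the myofilin gene, at -1.58 and fln, the flightin gene, at -1.53. Mf was not called without replicate 3 of T72h (-1.49), and fln was not called when any 1 of 5 libraries was left out (-1.23 at its nearest to 0, without replicate 3 of T72h).

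A few genes moved the same way on both diets by unequal amounts. Of 31 odorant-binding protein genes tested, 9 were called higher and 3 lower, beside 19.0% and 2.32% over all genes. Among those called, 2 moved the same way on both diets, Obp83a and Obp83b. Both fell, more on control medium. Obp83a had 4.5, 3.13 and 3.76 CPM in the T96h libraries, 7.31, 6.97 and 7.1 in T72h, 3.38, 2.48 and 2.51 in CK96h, and 22.2, 24 and 22.4 in CK72h, a difference of 2.13, and Obp83b was at 2.02. Os-C (2.21) and a10 (1.77), which are not on that list, also fell on both diets. Npc2d, a sterol-binding protein gene, rose in both, more on control medium (-1.9), and Cpr92F, a cuticle gene, fell in both, more on erythritol (-2.08). Of the genes that fell on erythritol only, Jon74E, a gut serine protease gene, had 22.7, 18.9 and 22.6 CPM in the T96h libraries, 125, 125 and 123 in T72h, 116, 122 and 113 in CK96h, and 144, 146 and 145 in CK72h, a difference of -2.23, CG7203 was at -2.68 and Cpr100A, a cuticle gene, at -2.23. Among those that fell on control medium only, Osi6, an Osiris gene of cuticle-forming tissue, was at 2.78, Dhc98D, a dynein heavy chain gene, at 2.46 and CG4702 at 2.73 (adjusted p = 0.0519 without replicate 3 of T96h). CG12716, which rose on control medium only, was at -3.32.

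Carbohydrate genes named in the study mostly stayed under the fold threshold. Maltases and amylases split starch and sugar in the gut. Of 14 tested, only tobi, a glucosidase gene, was called (1.64), and the median was -0.11 (0.20 with library totals). Mal-A1 had 2710.4, 2711 and 2738 CPM in the T96h libraries, 3285, 3241 and 3022 in T72h, 209.7, 209 and 205 in CK96h, and 411, 413 and 403 in CK72h. Both erythritol groups were far above the controls, and the difference was 0.75 (SE 0.059, adjusted p = 2.88e-11). Mal-A8 (0.81), Mal-A7 (0.78), Mal-A6 (0.49) and Mal-B1 (0.45) were above 0 and Mal-A3 (-1.1), Mal-A4 (-0.89), Mal-A2 (-0.38) and Mal-B2 (-0.30) below it, and all 9 passed the adjusted p alone. Amyrel, an amylase-related gene, was at -1.22 (SE 0.47, adjusted p = 0.0221), and it was called at -2.17 without replicate 2 of CK72h. The lipase gene bmm and the transcription factor gene foxo were at -0.80 and -0.87. Of the aquaporin genes besides Eglp1, Prip (-1.11), Eglp4 (-0.80), Drip (-0.32), Eglp2 (-0.24) and bib (-0.80) stayed under the fold threshold.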

How the data were processed

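The deposited table holds raw read counts per gene, which the authors made from poly(A)-selected RNA: adapters and low-quality reads were removed and the rest was aligned with HISAT2 to the FlyBase release 6 genome (CASAVA 1.8 is named in the submitters' processing notes). How reads were counted, and whether by strand, was not given in the sources used here. Values of overlapping, antisense and near-identical genes are therefore uncertain. Columns were matched to samples by label. Symbols and positions came from Ensembl's dm6 annotation, and 306 of 17558 FlyBase identifiers had no symbol.

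Counts were fitted with edgeR 4.0.16 (R 4.3.3): filterByExpr, TMM scaling, 4 group means, quasi-likelihood tests, Benjamini-Hochberg adjustment over 13179 genes. SE is the log2 value divided by the square root of F. Named genes are the 10 largest differences in each direction and the 5 largest of each mover class (mean log2 CPM of at least 2, over 3 counts in every group), called genes with fewer counts, leading members of lists, and genes named in the study. Genes named beyond this rule were chosen after their values were seen. The members and lists were chosen with earlier results of these data known, and 5 of 54 lists were added after their values had been seen. Alternatives covered scaling, filter, DESeq2 1.42.0, replicate block, each library left out and the thresholds. No sequences were printed. With 3 libraries a group, an exact permutation test of 1 gene cannot go below p = 0.1. Whether replicates came from separate pools is not in the labels, so p-values measure the spread between these libraries. No pair of replicates agreed within counting noise (chi-square per degree of freedom of at least 1.76). The fit was also run on counts simulated from its own dispersions, with a few genes shifted in T96h only. There 1 of 12786 unshifted genes was called, and 58 of 67 genes shifted by a log2 of 2. Because so few genes moved in it, that run does not test the scaling of the real libraries.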

Additional observations from a re-analysis of the deposited data

Results flagged for a closer look

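The erythritol effect differed between 96 h and 72 h by a test of the difference itself for 2498 genes that were higher at 96 h and 306 that were lower. Every called gene meets that test, so the 10 largest in each direction are given among genes whose log2 CPM averaged 2 or more and that had over 3 counts in every group. Higher at 96 h were Alp8 (log2 difference 4.22), CG15263 (4.14), CG12009 (3.46), CG6118 (3.30), CG15239 (3.29), CG15549 (2.87), CG34447 (2.86), CG31029 (2.85), CG32301 (2.84) and CG15824 (2.84). Lower at 96 h were Cp19 (-10.79), Cp36 (-9.70), Cp18 (-9.61), Cp16 (-9.59), Cp38 (-9.48), Mtk (-7.63), Mur11Da (-7.14), DptB (-7.03), AttC (-6.91) and DptA (-6.69). The values of Cp19, Cp36, Cp16, Cp38 and Mur11Da rest on few counts in T96h. Among genes of that mean level with at most 3 counts in a group, up to 5 in each direction were taken, and the fitted values were -10.00 for CG13084, -8.91 for CG32642, -8.84 for CG4009, -8.70 for Femcoat, -7.23 for CG31926 and 2.85 for CG14756. These depend on the prior count and are no measure of size, for which the counts in the text stand.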

How the results depend on the processing

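Of the 2804 genes called, 95.4% to 99.6% stayed called under each other scaling, filter, tool, block or left-out library. The genes with a lower effect at 96 h numbered 886 at a log2 threshold of 1 and 167 at 2. At those 2 thresholds, the genes higher on control medium only were 510 and 86, those higher on erythritol only 151 and 31, those lower on erythritol only 132 and 18, those moving the same way 20 and 7, and those passing in neither diet 358 and 3, and at 2 those lower on control medium only were 319. With a threshold within a diet of 1.5 or 1, those lower on control medium only were 431 and 1626, the opposite movers with higher T96h 19 and 597, the opposite movers with higher CK96h 15 and 42, the same-direction genes 1 and 4, and those in neither 2101 and 189, and at 1.5 those higher on erythritol only were 52. Library totals gave 48 opposite movers with higher CK96h. Genes in neither diet were 118 with no filter, 36 with DESeq2, and 33 to 66 with 1 library left out. All other counts stayed within 1.5 times of those given.

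Replicate numbers did not pair the libraries, with correlations of same-numbered deviations of -0.043 to 0.076 over 18 pairs of libraries, and the fit with the replicate number as a block gave 2496 higher and 303 lower genes. Of 165 named genes, 21 changed their call under at least 1 alternative. None that was called in the main fit or in an alternative changed direction between those fits. For genes called in neither, a change of direction was not counted. Several lay near the fold threshold, for example COX7AL2, Def, Ms, Hml, LManI, fit and Mf, and CG14756 was not called without replicate 3 of T96h. Of 54 list medians, 10 changed sign in some alternative, all of them lists with a median between -0.31 and 0.02. Without replicate 3 of T72h, the library with the highest mitochondrial share, 2666 genes were higher and 282 lower. Depth limited genes with a few counts in a group, for which counts and bounds are given.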

Other observations

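Some lists with no place in the comparisons above were also read. Their counts stand beside 19.0% called higher and 2.32% called lower over all genes. Of 16 heat shock genes, 3 were called higher and none lower, a share near that of all genes: Hsp68 had 24.5 ± 0.89 CPM in T96h, 17.2 ± 0.71 in T72h, 16 ± 1.76 in CK96h and 36 ± 0.869 in CK72h (SD, n = 3) and a difference of 1.69, and the near-identical copies Hsp70Bb and Hsp70Bbb, whose reads cannot be told apart with certainty, had 1.66 and 1.75. Of 51 cuticle genes, 3 were called higher and 7 lower, and of 31 digestive protease genes, none higher and 6 lower. Of 80 cytochrome P450 genes, 2 were called in each direction. None of 15 glycolysis genes, 17 genes of protein folding in the endoplasmic reticulum, 16 antioxidant genes or 10 clock genes was called by edgeR, while on the adjusted p alone 1, 1, 1 and 3 of them were higher and 13, 11, 10 and 5 lower.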
